A study of Oryza sativa Japonica Group with 24 samples.

Results

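The low phosphate (Pi) response of wild-type (WT) rice was compared between roots and shoots. For each gene, the change from high to low Pi in roots and the change from high to low Pi in shoots were taken on the log2(FPKM + 1) scale, and the shoot change was subtracted from the root change. FPKM is the number of fragments per kilobase of gene length, scaled per library. A positive difference means that the root change was the more positive, and a negative difference that the shoot change was. The comparison used 12 of the 24 messenger RNA libraries, 3 each of WT roots at 200 µM Pi (high Pi), WT roots at 10 µM Pi (low Pi), WT shoots at 200 µM Pi and WT shoots at 10 µM Pi. The plants were Oryza sativa Japonica seedlings without a transgene or mutation. They were 7 days old when the 2 weeks of Pi supply began, and each library pooled tissue from 3 seedlings. The other 12 libraries were of an overexpressor of the transcription factor bHLH6 and of the spx4 mutant at high Pi. They entered only the estimate of the spread within groups and the mean level that decided which genes were tested.

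Rice roots take up Pi, nitrate and iron from the medium, and shoots receive these through the xylem, assimilate them and recycle them from older tissue. When Pi is scarce, transcription factors of the PHR type switch on genes for Pi transporters, secreted phosphatases and enzymes that replace membrane phospholipids by lipids without phosphorus. SPX proteins hold PHR factors back when Pi is ample. Nitrate reductase carries out the first step of nitrate assimilation, which rice can perform in roots or in leaves. For iron, grasses release phytosiderophores, chelators made from nicotianamine, and take up the iron complex through transporters of the YSL family.

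WT root libraries held 22.1 to 24.9 M reads assigned to genes, and WT shoot libraries held 23.4 to 28.8 M. Roots and shoots were separated by the first principal component of the 12 libraries, with 89.4% of the variance. RCc3, a root-specific gene, stood at 2248 FPKM in high Pi roots and 0.306 in high Pi shoots on average, and was called in neither tissue. The summed level of 7 root markers was 4501 to 4596 FPKM in high Pi roots, 3079 to 3507 in low Pi roots and at most 30.9 in any shoot library. Of these 7 markers, 6 were called lower in low Pi roots. They were the nitrate and iron genes NAR2.1, NRT2.1, IRT1 and TOM1 and the silicon transporters LSI1 and LSI2. The calls of LSI1 and LSI2 were lost without WT low Pi root replicate 1. Replicate 1 of the WT low Pi shoots was unlike the other libraries of its group. It differed at least 2-fold from replicate 2 at 1042 genes and from replicate 3 at 1258 genes, against 154 genes between replicates 2 and 3. Its 4 green tissue markers summed to 4459 FPKM, against 17676 and 18754 in the other low Pi shoots and 15673 to 21755 in high Pi shoots. WT low Pi root replicates 1 and 2 differed at least 2-fold at 358 genes, against 25 to 111 genes for the other root pairs. In bulk tissue, fewer cells of a type and less RNA per cell cannot be told apart.

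The low Pi response differed between roots and shoots for 8707 of 22980 tested genes, which is 37.9% (limma adjusted p under 0.05). The root change was the more positive for 4274 of them (18.6% of tested genes) and the more negative for 4433 (19.3%). A difference of at least 1 on the log2 scale was reached by 2832 of the called genes, of which 876 were higher and 1956 lower in roots relative to shoots. Without WT low Pi shoot replicate 1 the count was 8688, and 7682 genes (88.2%) were called in both fits, all in the same direction. The balance of directions depended on the scaling: 49.1% of the calls were higher in roots with the deposited FPKM, 33.5% with TPM (FPKM rescaled to the same sum in each library) and 56.5% with quantile normalization in each tissue.

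Most of these genes were called in 1 tissue. Shoots alone were called for 4833 genes (21.0% of tested genes), and 753 of these had a mean under 1 FPKM in roots at both Pi levels. Roots alone were called for 1870 genes (8.14%), of which 936 had a mean under 1 FPKM in shoots. Another 852 genes (3.71%) moved in the same direction in both tissues by different amounts, and the shoot change was the larger for 711 of them. A further 745 genes (3.24%) moved in opposite directions, and 407 were called in neither tissue on its own. Of the 745, 243 rose in roots and fell in shoots (1.06% of tested genes), and 502 fell in roots and rose in shoots (2.18%). With TPM these counts were 133 and 584. Without WT low Pi root replicate 1 they were 137 and 342, and without WT high Pi root replicate 1 the first was 146. Changes of at least 1 in both tissues were rare among the opposite genes, with 3 of the first kind and 37 of the second. Considered singly, low Pi called 6448 genes in roots (28.1%; 3131 higher, 13.6%, and 3317 lower, 14.4%) and 10938 in shoots (47.6%; 5240 higher, 22.8%, and 5698 lower, 24.8%). Across the 22980 genes, root and shoot changes correlated with a Pearson r of 0.35, a description over genes that share the same libraries.

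**Figure D1:**
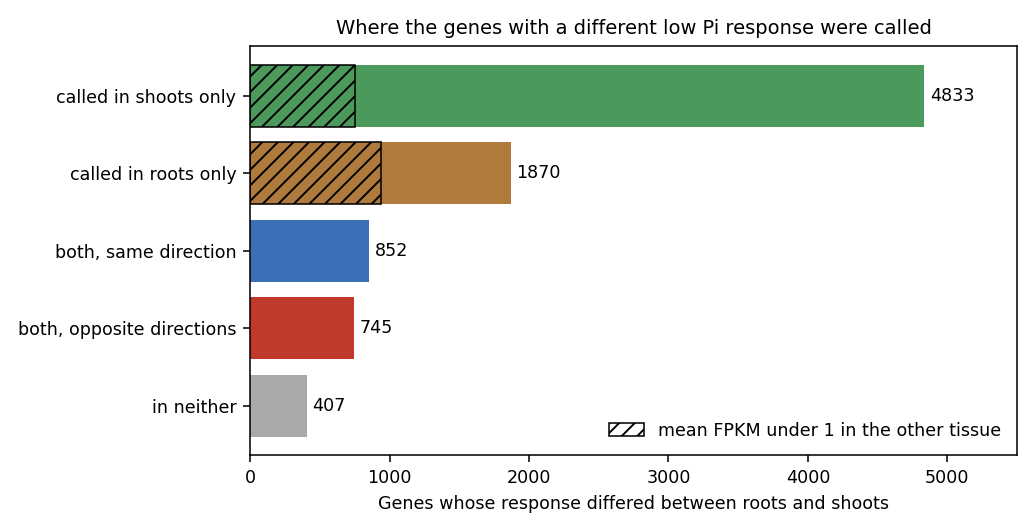
Number of genes whose low Pi response differed between WT roots and shoots, by the tissue in which low Pi itself was called; hatching marks genes with a mean under 1 FPKM in the tissue without a call. Genes called in shoots only (4833) outnumbered those called in roots only (1870), and 745 genes moved in opposite directions.

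**Figure D2:**
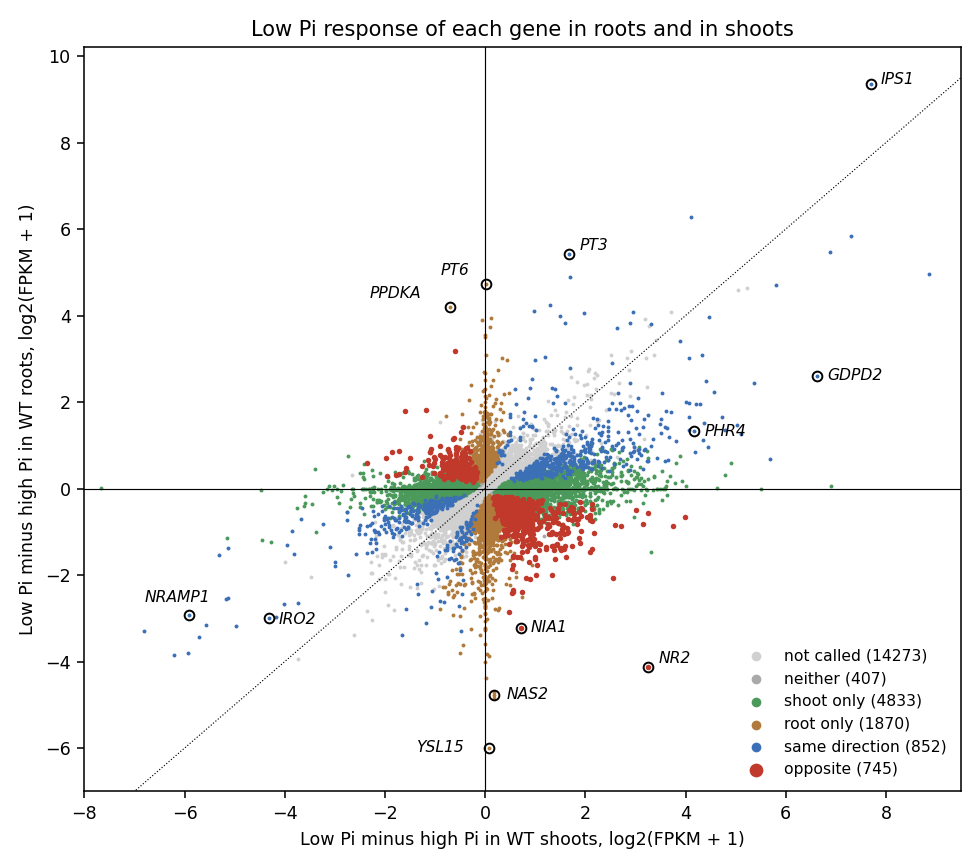
Change from high to low Pi in WT shoots (x axis) and in WT roots (y axis), log2(FPKM + 1), 1 point per tested gene, coloured by the class of its difference; the dotted line marks equal changes and circles mark genes named in the text. NR2 lies far among the genes that fell in roots and rose in shoots, and YSL15, NAS2 and PT6 lie near the vertical line of no change in shoots.

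The largest difference in size among the named genes was that of NR2 (LOC_Os02g53130; chromosome 2, 32513739 to 32517155, minus strand), a nitrate reductase. In roots NR2 stood at 51.2, 35.9 and 44.8 FPKM at high Pi and at 1.401, 1.67 and 1.58 at low Pi. In shoots it stood at 7.64, 6.68 and 5.12 FPKM at high Pi and at 49.4, 81.5 and 83.6 at low Pi. All low Pi roots were below all high Pi roots, and all low Pi shoots above all high Pi shoots. The change was -4.13 ± 0.31 (SE) in roots and 3.25 ± 0.31 in shoots, and the difference was -7.38 ± 0.43 (limma adjusted p = 4.31e-10). At high Pi NR2 was thus higher in roots, with 43.98 ± 7.695 against 6.48 ± 1.27 FPKM (SD, n = 3), and at low Pi it was higher in shoots, with 71.5 ± 19.2 against 1.55 ± 0.139.

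NIA1 (LOC_Os08g36480; chromosome 8, 23033230 to 23038596, plus strand), another nitrate reductase, also moved in opposite directions. It stood at 26.2, 23.2 and 26.3 FPKM in high Pi roots and 1.38, 2.31 and 1.86 in low Pi roots, and at 83.3, 88.6 and 92.6 in high Pi shoots and 98.9, 179 and 172 in low Pi shoots. Neither pair of groups overlapped, and low Pi shoot replicate 1 lay nearest to the high Pi shoots. The difference was -3.93 ± 0.25 (SE, limma adjusted p = 1.19e-09), made of -3.21 in roots and 0.72 in shoots.

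Of 16 genes of nitrogen uptake and assimilation, 14 fell in roots and none rose, whereas in shoots 4 rose and 5 fell. Their median change was -2.55 in roots and 0.00 in shoots, against 0.01 and -0.01 over all tested genes. The difference was called lower in roots for 12 of the 16 (75.0%) and higher for 1 (6.2%), against 19.3% and 18.6% of all tested genes. The lower count was 11 to 13 when single libraries were left out. Nitrate transport genes were among them. NAR2.1, the partner protein of the NRT2 nitrate transporters, fell from 432, 324 and 393 to 44.2, 56.6 and 54.1 FPKM in roots. In shoots it stayed under 1 FPKM, at 0.0863, 0.148 and 0.291 and at 0.571, 0.748 and 0.598, a rise whose call ended in 2 of the 12 fits that left out 1 library. NRT2.3, a nitrate transporter of the root stele, fell in roots by 1.00 and rose in shoots by 1.65, with 0.409, 0.2004 and 0.306 FPKM in high Pi and 1.78, 5.297 and 2.92 in low Pi shoots. Its shoot groups did not overlap. NRT2.1 and NRT2.2, high-affinity nitrate transporters of roots, were listed at 0 in all WT shoots. They fell in roots from 8.66 ± 2.48 to 0.136 ± 0.141 and from 13.2 ± 2.56 to 1.204 ± 0.394 FPKM (SD, n = 3). NRT1.1B, a nitrate transporter and sensor, fell from 50.3 ± 7.02 to 2.62 ± 0.373 FPKM in roots (difference -3.85 ± 0.47, SE, limma adjusted p = 3.75e-06). Differences of genes near 0 in 1 tissue depended on the pseudocount: with 0.1 in place of 1, that of NRT2.1 went from -3.06 to -5.38, that of NRT2.3 from -2.65 to -4.11 and that of AMT1.2 from -3.08 to -5.45.

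Ammonium transport and assimilation genes were divided. The ammonium transporters AMT1.2 and AMT1.3 fell in roots by 2.82 and 2.42 and were not called in shoots, where both stayed at or under 2.05 FPKM. AMT1.1 fell by 0.78 in each tissue, with no difference called. GS1.2, a cytosolic glutamine synthetase, stood at 480.1, 358 and 465 FPKM in high Pi roots and 37.8, 63.2 and 49.3 in low Pi roots, and at 58.8, 52.5 and 65.8 and 22.2, 26.6 and 28.03 in shoots. It fell in both tissues, more in roots (difference -1.94 ± 0.30, SE, limma adjusted p = 5.1e-05). GS1.1, another cytosolic glutamine synthetase, had a mean of 409 FPKM in high Pi roots and 405 in low Pi roots, and passed no test. Nitrite reductase NIR1 fell in both tissues, from 615 ± 27.8 to 246 ± 49.6 FPKM in roots and from 446 ± 59.2 to 243 ± 63.9 in shoots (SD, n = 3). Its difference of -0.44 ± 0.26 (SE) was not called (limma adjusted p = 0.201), but was -0.68 and passed without WT low Pi shoot replicate 1 (limma adjusted p = 0.0256). The calls for the plastid enzymes GS2 and Fd-GOGAT ended in 2 and 3 of the 12 fits that left out 1 library, and NADH-GOGAT1, called in roots only, had a difference of -1.27 ± 0.21.

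**Figure D3:**
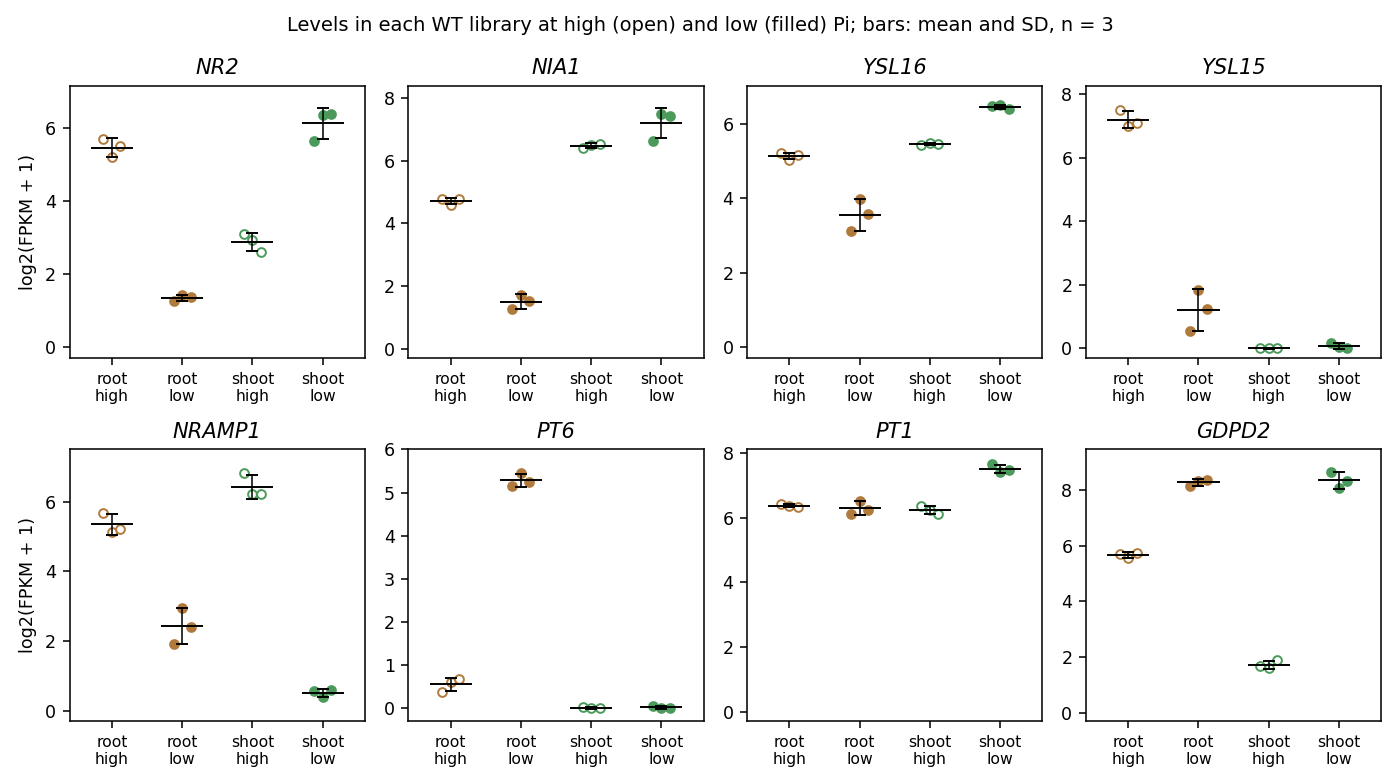
Level of 8 genes in each WT library, log2(FPKM + 1), in roots (brown) and shoots (green) at high (open) and low (filled) Pi; horizontal bars are means and error bars SD over 3 libraries. NR2 and NIA1 fell in roots and rose in shoots, YSL15 and PT6 stayed near 0 in shoots, and PT1 rose in shoots with its root groups overlapping.

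Of 19 tested iron homeostasis genes, 14 fell in roots and none rose, and in shoots 7 fell and 4 rose. Of all tested genes, 14.4% fell in roots. The median change of the list was -2.70 in roots and -0.10 in shoots. The difference was called lower in roots for 9 (47.4%) and higher for 2 (10.5%), against 19.3% and 18.6% of all tested genes. Among genes for making and moving phytosiderophores, YSL15, NAS1, NAS2, TOM1 and DMAS1 fell in roots and were barely detected or not called in shoots, and NAAT1 fell in both tissues. YSL15 (LOC_Os02g43410; chromosome 2, 26200013 to 26204720, minus strand), which takes up the iron complex, stood at 179, 128 and 136 FPKM in high Pi roots and at 0.452, 2.58 and 1.37 in low Pi roots. No shoot library exceeded 0.136 FPKM, and the difference was -6.07 ± 0.54 (SE, limma adjusted p = 7.56e-08). The low Pi roots were far below the high Pi roots in all 3 libraries.

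NAS1 and NAS2, neighbouring nicotianamine synthase genes of near-identical sequence whose reads the counting could divide between them, fell from 599 ± 211 to 24.04 ± 12.96 and from 777 ± 274 to 30.4 ± 17.1 FPKM in roots (SD, n = 3). Neither exceeded 0.481 FPKM in any shoot, and the differences were -4.87 ± 0.67 and -4.96 ± 0.70 (SE). TOM1, the phytosiderophore exporter, stood at 193, 130.03 and 112 FPKM in high Pi roots and 3.51, 8.52 and 6.396 in low Pi roots, and was listed at 0 in all high Pi shoots (difference -4.40 ± 0.45, SE). DMAS1, the last enzyme of phytosiderophore synthesis, was present in both tissues. It fell from 189 ± 34.7 to 14.96 ± 5.16 FPKM in roots and was not called in shoots, at 47.4 ± 0.987 and 35.1 ± 7.495 (difference -3.17 ± 0.32, SE, limma adjusted p = 4.16e-07). NAAT1, an aminotransferase of the same pathway, fell in both tissues with changes of -3.93 and -3.73, and its difference of -0.20 ± 0.93 (SE) was not called.

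NRAMP1 (LOC_Os07g15460), a metal transporter, fell in both tissues but more in shoots. It stood at 50.3, 34.4 and 36.4 FPKM in high Pi roots and 2.77, 6.74 and 4.32 in low Pi roots. In shoots it stood at 113, 73.2 and 73.8 FPKM at high Pi and 0.477, 0.314 and 0.516 at low Pi, where all 3 libraries were under 1. The difference was 2.98 ± 0.62 (SE, limma adjusted p = 0.000944). IRO2, a transcription factor that activates phytosiderophore genes, likewise fell further in shoots, from 23.3 ± 4.49 to 0.205 ± 0.0963 FPKM, than in roots, from 30.8 ± 4.68 to 3.43 ± 2.41 (SD, n = 3). Its difference of 1.34 ± 0.44 (SE, limma adjusted p = 0.0224) was 2.91 with a pseudocount of 0.1, and was not called with TPM or with a pseudocount of 5. It was also lost without WT low Pi root replicate 2 or without WT high Pi shoot replicate 1, where the highest adjusted p was 0.0663. IRT1, the ferrous iron transporter, fell from 44.2 ± 3.94 to 3.67 ± 0.6304 FPKM in roots and from 1.47 ± 0.0763 to 0.784 ± 0.176 in shoots.

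YSL16, a transporter of iron and copper complexes within the plant, moved in opposite directions. It stood at 36.03, 31.9 and 35.01 FPKM in high Pi roots and 7.66, 14.7 and 11.02 in low Pi roots, and at 42.4, 43.98 and 43.2 in high Pi shoots and 89.1, 89.4 and 83.04 in low Pi shoots. No groups of a tissue overlapped, and the difference was -2.58 ± 0.19 (SE, limma adjusted p = 9.69e-09). The ferritins FER1 and FER2, iron storage proteins encoded by near-identical genes, rose in shoots alone, from 30.3 ± 1.99 to 88.5 ± 6.37 and from 22.9 ± 3.93 to 72.9 ± 1.197 FPKM (SD, n = 3), with differences of -1.19 ± 0.33 and -1.30 ± 0.32 (SE). The iron-sensing ubiquitin ligases HRZ1 and HRZ2 fell in both tissues, and no difference was called. The vacuolar transporters VIT1 and VIT2, the transporter IRT2 and the regulator IRO3 had no called difference either. IRO3 passed without WT low Pi root replicate 2, and the nicotianamine synthase NAS3 without WT low Pi shoot replicate 2. VIT1 passed with TPM and VIT2 with a pseudocount of 0.1. YSL2 was below the level required for testing.

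Pi starvation genes rose in both tissues. All 14 listed markers rose in roots and all 14 in shoots, with medians of 3.89 and 4.09. They stayed so in every fit that left out 1 library. SPX6 was added to this list after the data were seen. The sizes differed for 11 of the 14 (78.6%, against 37.9% of all tested genes). Of these 4 rose more in roots and 7 more in shoots, with ranges of 3 to 5 and 5 to 8 when single libraries were left out. GDPD2, a phosphodiesterase that acts on glycerophosphodiesters, products of membrane lipid breakdown, was the most unequal. It stood at 51.1, 45.9 and 52.7 FPKM in high Pi roots and 281, 321 and 324 in low Pi roots, and at 2.21, 2.02 and 2.68 in high Pi shoots and 402, 265 and 316 in low Pi shoots. Low Pi levels were close in both tissues, while the high Pi level was about 50 FPKM in roots and under 3 in every shoot. The difference was -4.02 ± 0.20 (SE, limma adjusted p = 3.58e-11). A second gene with the same domain, LOC_Os08g42390, rose from 2.81 to 83.9 FPKM in shoots and from 11.6 to 23.5 in roots (difference -3.49 ± 0.20, SE).

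The SPX genes did not share a direction. SPX6 rose more in roots, from 1.15, 0.987 and 1.22 to 116, 204 and 180.4 FPKM, than in shoots, from 19.9, 14.4 and 16.5 to 381, 259.8 and 292 (difference 2.16 ± 0.24, SE, limma adjusted p = 1.67e-06). SPX5 rose from 0.366 to 222 FPKM in shoots and from 2.14 to 181 in roots on average (difference -1.46 ± 0.28, SE), and SPX2 also rose more in shoots (difference -1.04 ± 0.23). With a pseudocount of 0.1 the difference of SPX5 was -2.60. The smaller difference of SPX1, -0.49 ± 0.15 (SE), was no longer called without WT high Pi shoot replicate 2 (limma adjusted p = 0.0519). SPX3 showed no called difference (0.47 ± 0.40, limma adjusted p = 0.375) but was 1.04 and passed without WT low Pi shoot replicate 1. IPS1, a noncoding RNA that sequesters the microRNA miR399, rose from 1.47 to 1593 FPKM in roots and from 0.303 to 275 in shoots, with a difference of 1.67 ± 0.39 (SE) that was not called with a pseudocount of 0.1 in place of 1.

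Some enzymes that replace phospholipids had unequal rises. MGD, a monogalactosyldiacylglycerol synthase, rose from 0.279 ± 0.0895 to 56.1 ± 7.22 FPKM in roots and from 0.0237 ± 0.0247 to 121 ± 19.5 in shoots (SD, n = 3). Its difference was -1.40 ± 0.15 (SE), and -2.70 with a pseudocount of 0.1. SQD1, an enzyme of sulfolipid synthesis, had a difference of -0.45 ± 0.13 (SE) that was not called with a pseudocount of 0.1. SQD2.1 and the acid phosphatase PAP10a had differences of 0.51 ± 0.19 and -0.51 ± 0.18 (SE), which lost their call in 8 and 6 of the 12 fits that left out 1 library. Of 55 genes described as purple acid phosphatases or related phosphoesterases, 17 rose and 8 fell in roots (5 fell without WT high Pi root replicate 3), 23 rose and 9 fell in shoots, and 32 had no called difference (41.8% called, against 37.9% of all tested genes). PAP23, a purple acid phosphatase, rose to 21.8, 25.1 and 24.1 FPKM in low Pi roots and 6.87, 6.57 and 6.94 in low Pi shoots, with a difference of 1.14 ± 0.11 (SE). No high Pi library exceeded 0.534 FPKM, and with a pseudocount of 0.1 the sign of its difference turned and the call was lost. LOC_Os11g05400, also of the purple acid phosphatase type, rose more in roots (4.51 ± 0.952 to 96.7 ± 31.2 FPKM; difference 3.14 ± 0.28, SE), and LOC_Os03g13540, a calcineurin-like phosphoesterase, rose more in shoots (2.15 ± 0.156 to 88.99 ± 28.2 FPKM; difference -3.44 ± 0.20, SE).

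PHT1 proteins import Pi across the plasma membrane. Of 13 PHT1 genes 8 were tested, and 5 (PT5, PT7, PT11, PT12 and PT13) were below the level required. In roots 7 rose, with a median of 3.31, and in shoots 7 rose, with a median of 1.39. The difference was higher in roots for 5 of the 8 (62.5%) and lower for 1 (12.5%), against 18.6% and 19.3% of all tested genes. PT6 (LOC_Os08g45000; chromosome 8, 28244202 to 28246028, plus strand) rose in roots alone, from 0.296, 0.525 and 0.595 to 34.6, 42.6 and 37.1 FPKM, and no shoot library exceeded 0.0459 FPKM (difference 4.72 ± 0.13, SE, limma adjusted p = 5.12e-15). PT3 stood at 0.128, 0.163 and 0.142 FPKM in high Pi roots and 40.7, 51.3 and 53.4 in low Pi roots. In shoots PT3 stood at 0.0261, 0.238 and 0.0878 FPKM at high Pi and 7.45, 0.838 and 1.903 at low Pi, where replicate 1 was well above replicates 2 and 3 (difference 3.75 ± 0.44, SE).

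PT9 and PT10, a near-identical pair whose reads may be divided between them, rose from under 0.1 FPKM to 15.7 and 20.02 FPKM on average in roots and to 1.93 and 1.81 in shoots. PT2 rose in roots from 18.3 to 97.8 FPKM and in shoots from 0.148 to 1.15 (difference 1.43 ± 0.19, SE), and lost its call with a pseudocount of 0.1. PT1 was the exception, since it rose in shoots alone. It stood at 84.3, 80.2 and 79.7 FPKM in high Pi roots and 68.4, 90.8 and 74.4 in low Pi roots, which overlapped, and at 80.4, 73.9 and 67.7 in high Pi shoots and 199.98, 169 and 178 in low Pi shoots, which did not (difference -1.36 ± 0.19, SE, limma adjusted p = 1.72e-05). PT4 and PT8 rose in both tissues, and their differences of 0.40 ± 0.26 and -0.75 ± 0.41 (SE) were not called. Without WT low Pi root replicate 1 the difference of PT4 passed, and PT8 passed when the spread was estimated from the 12 WT libraries alone.

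Of 10 regulators of Pi signalling, 1 rose and 5 fell in roots (3 without WT high Pi root replicate 1 or without WT low Pi root replicate 1), and 3 rose and 3 fell in shoots. Of all tested genes, 13.6% rose and 14.4% fell in roots, and 22.8% rose and 24.8% fell in shoots. For 6 of the 10 regulators the difference was lower in roots, and for none higher, against 19.3% and 18.6% of all tested genes. PHR4, a PHR-type factor, rose from 8.399, 8.17 and 8.62 to 20.8, 23.3 and 23.6 FPKM in roots and from 7.74, 7.15 and 8.43 to 179, 138 and 156 in shoots (difference -2.85 ± 0.16, SE, limma adjusted p = 2.76e-10). At high Pi its levels in both tissues lay between 7.15 and 8.62 FPKM, and at low Pi every shoot library was above every root library. RLI1, a factor of the same family that acts in leaf inclination, fell in both tissues and more in roots, from 44.2 ± 2.92 to 6.04 ± 2.24 FPKM (SD, n = 3; difference -1.65 ± 0.27, SE). PHO2, the ubiquitin-conjugating enzyme that limits Pi transport to shoots, fell in roots from 61.5, 63.004 and 58.6 to 19.5, 32.7 and 26.1 FPKM. In shoots its groups overlapped, at 12.2, 12.9 and 13.7 and 20.3, 10.9 and 12.1, and the difference was -1.33 ± 0.25 (SE, limma adjusted p = 0.000324). PTF1, a bHLH factor linked to low Pi tolerance, rose in shoots alone, from 8.896 to 18.1 FPKM (difference -0.91 ± 0.19, SE). PHR1, SPX4 and NLA1 had differences between -0.10 and 0.00 that were not called, and PHR2 had one of -0.32 ± 0.10 (SE). PHR3 was called in neither tissue on its own, and its called difference of -0.67 was lost in 7 of the 12 fits that left out 1 library.

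Of 8 vacuolar and xylem Pi transport genes, 4 had a called difference (against 37.9% of all tested genes), all higher in roots (against 18.6%). The count was 2 with TPM and in 5 of the 12 fits that left out 1 library (without WT high Pi root replicate 1 or 2, WT low Pi root replicate 2, WT high Pi shoot replicate 3 or WT low Pi shoot replicate 2). SPX-MFS1, of the vacuolar Pi transporter family, fell in shoots from 5.15, 4.72 and 4.05 to 0.971, 2.09 and 1.29 FPKM and stayed under 0.1 FPKM in roots (difference 1.26 ± 0.23, SE, and 1.94 with a pseudocount of 0.1). PHO1-1, a member of the family of xylem loading exporters, rose in roots alone, from 0.927 ± 0.1303 to 2.38 ± 0.676 FPKM (SD, n = 3), with a difference of 0.86 ± 0.23 (SE) that was 1.34 with a pseudocount of 0.1. VPE1, a vacuolar Pi exporter, rose in both tissues, and its difference of 0.38 ± 0.15 (SE) was lost in 9 of the 12 fits that left out 1 library. PHO1-3 had one of 0.35 ± 0.13 (SE), lost in 6 of the 12, and depended on the pseudocount, with 1.46 at 0.1 and a call in the other direction, -0.39, at 5. VPE2 rose by 3.01 in roots and 3.22 in shoots, with no difference called. The differences of SPX-MFS2 (-0.6), SPX-MFS3 (0.33) and PHO1-2 (-0.33) were not called either. That of SPX-MFS2 passed without WT low Pi root replicate 2 and with a pseudocount of 5.

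Among genes that rose in roots alone or mostly, PPDKA, a pyruvate phosphate dikinase, had the highest difference under the naming rule. It stood at 1.79, 1.91 and 2.19 FPKM in high Pi roots and 17.997, 131 and 64.1 in low Pi roots, and at 0.397, 1.55 and 0.431 and 0.0126, 0.107 and 0.0468 in shoots. The low Pi roots spread over a wide range, all above the high Pi roots, and the difference was 4.91 ± 0.73 (SE, limma adjusted p = 3.58e-05). A gene with multicopper oxidase domains, LOC_Os01g03640, rose from 9.09, 10.1 and 8.46 to 184, 119 and 152 FPKM in roots and was at or near 0 in shoots. LOC_Os11g35930, described as thiolase-like, rose from 4.07 ± 0.624 to 66.4 ± 6.36 FPKM and LOC_Os04g09390, described as chitin-binding, from 1.25 ± 0.614 to 24.9 ± 8.34 (SD, n = 3). The first stayed near 0 in shoots and the second was listed at 0 there. LOC_Os10g02750, a calcineurin-like phosphoesterase, rose to 62.5 FPKM in low Pi roots and 2.904 in low Pi shoots, from 1.15 and 0.0237. Its difference of 3.20 ± 0.41 (SE) was 1.47 and not called with a pseudocount of 0.1. LOC_Os04g47360, a peptidase of family S9A, was high in the same ranking through its fall in shoots, where it stood at 576, 331 and 629 FPKM at high Pi and 61.4, 5.86 and 5.18 at low Pi.

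Aquaporins, which conduct water and small solutes across membranes, also had members that fell in roots. Of 26 aquaporin genes 12 fell and 1 rose in roots, while 7 fell and 8 rose in shoots, where 24.8% of all tested genes fell and 22.8% rose. The fall count in shoots was 3 with TPM and 4 without WT high Pi shoot replicate 3 or without WT low Pi shoot replicate 3. The difference was lower in roots for 11 (42.3%) and higher for 1 (3.8%), against 19.3% and 18.6% of all tested genes. The aquaporin-family gene LOC_Os04g44060 fell from 253, 261 and 272 to 54.96, 71.9 and 69.3 FPKM in roots and was under 0.3 FPKM in every shoot (difference -2.09 ± 0.16, SE). LOC_Os01g74450 of the same family fell from 201 ± 18.8 to 38.1 ± 13.7 FPKM in roots and from 775 ± 35.2 to 559.6 ± 27.2 in shoots (SD, n = 3), the latter call being lost in 7 of the 12 fits that left out 1 library. Of 124 class III peroxidases, enzymes of the cell wall, 33 had a difference lower (26.6%) and 25 higher (20.2%) in roots, against 19.3% and 18.6% of all tested genes. LOC_Os07g01410 of this family fell from 594 ± 43.4 to 139.98 ± 44.4 FPKM in roots and was near 0 in shoots. LOC_Os06g43410, a cytochrome P450, fell from 45.7, 52.1 and 47.4 to 0.186, 1.82 and 0.515 FPKM in roots, and no shoot exceeded 0.241 FPKM (difference -5.02 ± 0.32, SE).

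Genes of the light-harvesting antenna, which bind chlorophyll, were measurable in roots and fell there. All 11 tested members fell in roots, with a median of -2.20, and none was called in shoots, where the median was -0.57. Without WT low Pi shoot replicate 3, however, 5 were called lower in shoots. The shoot median was -0.05 when WT low Pi shoot replicate 1 was left out. The difference was lower in roots for 9 of 11 (81.8%, against 19.3% of all tested genes). The 9 became 5 without WT low Pi root replicate 1 or without WT low Pi shoot replicate 3, and 11 without WT low Pi shoot replicate 1. LHCB1.3 stood at 57.1, 62.9 and 55.998 FPKM in high Pi roots and 10.01, 15.7 and 11.8 in low Pi roots, and at 14142, 14371 and 15479 in high Pi shoots and 9097, 13634 and 14877 in low Pi shoots. Root levels were less than 1% of shoot levels, and low Pi shoot replicate 1 was the lowest shoot library. The difference was -1.91 ± 0.32 (SE, limma adjusted p = 0.000122). The list of 12 antenna genes was chosen after the values were seen, with LHCB1.1 listed at 0 throughout. In the separate list of 20 genes described as photosystem or light-harvesting, 12 fell and 1 rose in roots, and 6 fell and 2 rose in shoots. There the difference was lower in roots for 6 and higher for 2 (10.0% higher and 30.0% lower, against 18.6% and 19.3% of all tested genes), and the lower count was 2 to 4 without any 1 of 10 libraries, 6 without WT low Pi root replicate 2 and 13 when WT low Pi shoot replicate 1 was left out. The falls in shoots numbered 2 with that shoot library left out, 12 without replicate 2 or 3 of its group and 3 without WT high Pi shoot replicate 3. The summed level of the 12 antenna genes was 357 to 444 FPKM in high Pi roots and 48.7 to 107 in low Pi roots. It was 77643 to 97653 in high Pi shoots, and 29031, 80954 and 86973 in low Pi shoots in rising order. The part of green tissue in the root libraries was not tested.

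**Figure D4:**
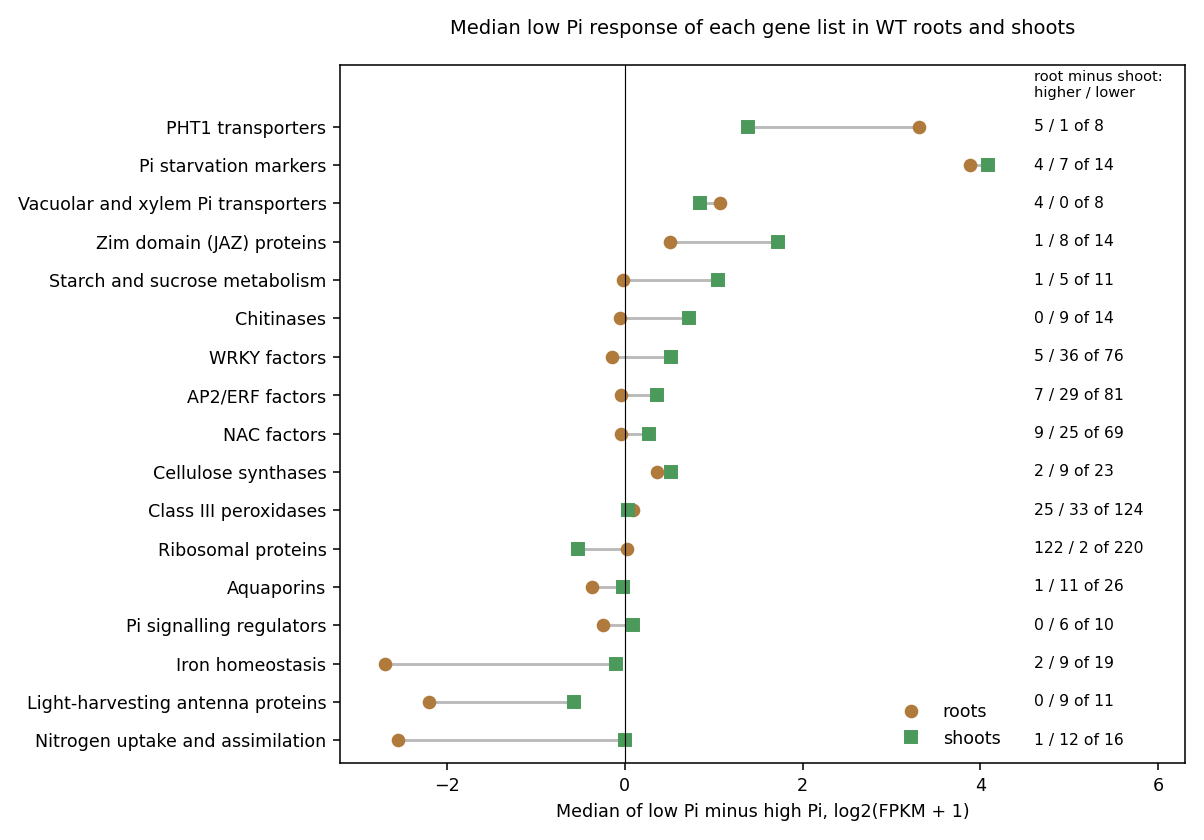
Median change from high to low Pi, log2(FPKM + 1), of 17 gene lists in WT roots (circles) and shoots (squares), with the number of members whose root minus shoot difference was called higher and lower, of those tested. Nitrogen, iron and antenna genes had medians under -2 in roots and near 0 to -0.57 in shoots, and Pi starvation markers had like medians in both tissues.

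Ribosomal protein genes showed the reverse arrangement, with a fall in shoots. Of 220 tested genes described as ribosomal proteins, 156 fell in shoots and 4 rose, while 6 fell and 2 rose in roots (10 rose without WT low Pi root replicate 2, and 2 fell without WT high Pi root replicate 3, 9 without WT low Pi root replicate 1 or low Pi shoot replicate 2, 11 without WT low Pi shoot replicate 1 and 12 with TPM). The median change was -0.52 in shoots and 0.03 in roots. The difference was higher in roots for 122 (55.5% of the list, against 18.6% of all tested genes) and lower for 2. The count of 122 was 61 with TPM, 137 without WT low Pi shoot replicate 1 and 84 to 156 when single libraries were left out, and the median difference was 0.54 with the deposited FPKM and 0.40 with TPM. Among the named members, LOC_Os02g51790, described as ribosomal protein L29/L36, stood at 35.7, 38.7 and 46.4 FPKM in high Pi shoots and 3.21, 7.71 and 5.79 in low Pi shoots, and at 3.73, 3.15 and 2.94 and 1.78, 2.08 and 2.78 in roots (difference 2.29 ± 0.27, SE). The genes LOC_Os03g24020 (L6) and LOC_Os03g61260 (L18) fell in shoots from 78.3 ± 8.81 to 16.3 ± 3.92 and from 63.04 ± 9.47 to 10.6 ± 3.54 FPKM (SD, n = 3), and neither was called in roots.

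Transcription factor families of stress and defence had more members that rose than fell in shoots, where 22.8% of all tested genes rose and 24.8% fell. Of 76 WRKY genes, 42 rose and 7 fell in shoots, whereas 9 rose and 20 fell in roots. The root fall count was 12 without WT low Pi root replicate 1, the root rise count was 5 without WT high Pi root replicate 1 or 2, and the shoot fall count was 3 without WT low Pi shoot replicate 1. The difference was lower in roots for 36 (34 to 38 when single libraries were left out) and higher for 5, against 19.3% and 18.6% of all genes. The median changes were 0.52 in shoots and -0.14 in roots. The WRKY gene LOC_Os09g25060 (chromosome 9, 14975932 to 14977713, minus strand) stood at 7.75, 4.33 and 7.48 FPKM in high Pi shoots and 86.02, 108 and 99.4 in low Pi shoots, and at 6.15, 8.16 and 6.72 in high Pi roots and 2.95, 3.41 and 3.6997 in low Pi roots. Neither pair of groups overlapped, and the difference was -4.62 ± 0.37 (SE, limma adjusted p = 2.42e-08), while its fall in roots lost its call in 2 of the 12 fits that left out 1 library. Its neighbour LOC_Os09g25070 rose from 3.72 ± 1.28 to 30.4 ± 9.801 FPKM in shoots and went from 16.6 ± 1.73 to 8.58 ± 0.579 in roots (SD, n = 3), a fall lost in 6 of those 12 fits.

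NAC factors, which include regulators of senescence, were called higher in shoots for 26 of 69 genes and lower for 6, and higher in roots for 14 and lower for 12 (6 without WT low Pi root replicate 1). Their difference was lower in roots for 25 (36.2%) and higher for 9 (13.0%), against 19.3% and 18.6% of all tested genes. LOC_Os01g60020 of this family rose in shoots from 3.41, 9.15 and 4.82 to 112, 81.7 and 95.3 FPKM and stood at 2.97, 2.81 and 3.35 and 2.58, 6.35 and 2.52 in roots (difference -3.76 ± 0.59, SE). LOC_Os05g34830, another NAC gene, moved in opposite directions (difference -2.32 ± 0.21, SE, and -4.08 with a pseudocount of 0.1), from 1.85 ± 0.253 to 0.1398 ± 0.0367 FPKM in roots and from 11.6 ± 0.9801 to 24.2 ± 2.09 in shoots (SD, n = 3). Of 81 genes with an AP2 domain, a list added after the data were seen, 36 rose and 11 fell in shoots. A difference lower in roots was called for 29 (35.8%) and a higher one for 7 (8.6%), against the same background. The 7 became 2 with TPM and 4 without WT high Pi root replicate 1 or without WT high Pi shoot replicate 1. LOC_Os03g09170 of this family stood at 19.2, 14.8 and 15.5 FPKM in high Pi roots and 2.67, 4.07 and 3.37 in low Pi roots, and at 2.94, 2.76 and 2.78 and 4.03, 10.6 and 14.3 in shoots. LOC_Os02g42585 fell from 14.4 to 2.84 FPKM in roots and rose from 7.36 to 15.8 in shoots (difference -3.01 ± 0.23, SE).

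Some genes of jasmonate signalling rose in shoots. Of 14 genes with a Zim domain, the domain of the JAZ repressors of jasmonate signalling and also a list added later, 9 rose and 1 fell in shoots, and 2 rose and 1 fell in roots. The difference was lower in roots for 8 (57.1%) and higher for 1 (7.1%), against 19.3% and 18.6% of all tested genes, and the median change was 1.73 in shoots and 0.51 in roots. LOC_Os03g08320 stood at 3.91, 6.47 and 6.91 FPKM in high Pi shoots and 62.8, 77.7 and 47.1 in low Pi shoots, and at 12.8, 11.2 and 12.02 and 21.2, 34.2 and 15.96 in roots (difference -2.37 ± 0.58, SE, limma adjusted p = 0.00343). The low Pi roots were also above the high Pi roots, with no call in roots. MYC2, a bHLH activator of jasmonate responses, rose in shoots from 25.7 ± 2.32 to 51.05 ± 4.38 FPKM and was not called in roots (difference -0.73 ± 0.21, SE), and OPR7, an enzyme of jasmonate synthesis, had a difference of -0.90 ± 0.16 (SE). Of all 10 listed jasmonate genes, 6 rose in shoots and 3 in roots. Differences were called for 3 (30.0%, against 37.9% of all tested genes), all lower in roots. No rise in roots was called without WT high Pi root replicate 1 or 2 or without WT low Pi root replicate 1. RERJ1, the bHLH6 gene, stood at 5.21, 5.22 and 5.29 FPKM in high Pi shoots and 9.25, 83.1 and 73.8 in low Pi shoots, and at 5.35, 5.66 and 3.24 and 6.85, 17.2 and 1.39 in roots. Low Pi shoot replicate 1 was far below replicates 2 and 3, and the difference of -2.38 ± 0.96 (SE) was not called (limma adjusted p = 0.0582), but was -3.36 and passed without that library, and also passed without WT low Pi root replicate 2.

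**Figure D5:**
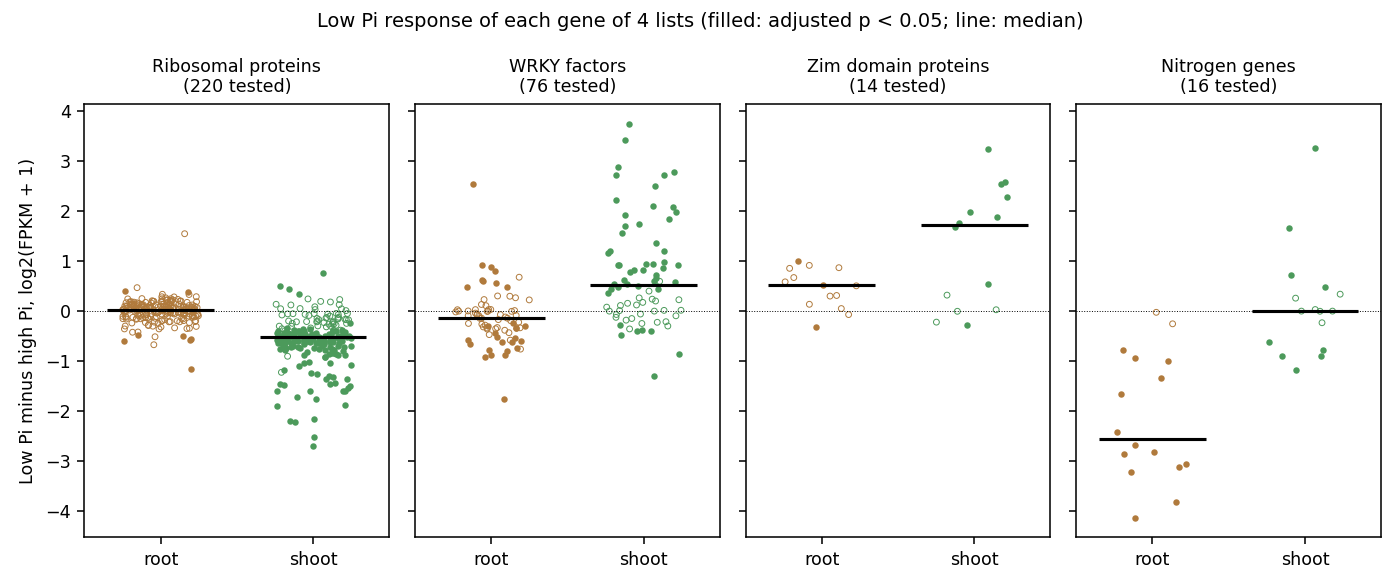
Change from high to low Pi, log2(FPKM + 1), of each tested gene of 4 lists in WT roots (brown) and shoots (green); filled points had an adjusted p under 0.05 and black lines are medians. Ribosomal protein genes lie around 0 in roots and mostly below 0 in shoots, WRKY and Zim genes reach higher in shoots, and nitrogen genes lie below 0 in roots.

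Chitinases, enzymes of defence against fungi, rose in shoots for 8 of 14 genes with none falling, and in roots 2 rose and 3 fell, with 1 fall without WT high Pi root replicate 1 or 2 or without WT low Pi root replicate 1. The difference was lower in roots for 9 of 14 (64.3%, against 19.3% of all tested genes), and for 6 without WT low Pi shoot replicate 1. LOC_Os08g41100 of this family rose in shoots from 3.39, 3.19 and 4.54 to 29.1, 17.3 and 15.5 FPKM and stood at 41.7 ± 1.54 and 58.3 ± 7.55 in roots (SD, n = 3; difference -1.69 ± 0.25, SE). Of 4 chlorophyll breakdown genes 2 rose and 1 fell in shoots, and 2 differences were lower and 2 higher in roots. Of all tested genes, 22.8% rose and 24.8% fell in shoots, and 19.3% had a lower and 18.6% a higher difference. The higher difference of NYC1, 0.42, lost its call with TPM and in 3 of the 12 fits that left out 1 library. That of NOL, 0.69, lost its call with a pseudocount of 0.1. SGR, which removes magnesium from chlorophyll, went from 2.31, 4.26 and 3.28 to 42.5, 14.96 and 11.9 FPKM in shoots and stood at 20.4 ± 2.24 and 19.4 ± 1.15 in roots (difference -2.37 ± 0.40, SE, limma adjusted p = 0.00012). Low Pi shoot replicate 1 held the highest SGR level, and without it the difference was -1.83. PPH, pheophytinase of the same pathway, rose from 30.6 ± 2.95 to 71.5 ± 19.7 FPKM in shoots (difference -1.01 ± 0.19, SE).

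Of 11 tested genes of starch and sucrose, 7 rose and 2 fell in shoots, and 3 rose and 1 fell in roots. The difference was lower in roots for 5 (45.5%) and higher for 1 (9.1%), against 19.3% and 18.6% of all tested genes. AGPL1, a subunit of the ADP-glucose pyrophosphorylase that feeds starch synthesis, stood at 2.02, 2.895 and 3.32 FPKM in high Pi shoots and 54.1, 18.7 and 12.99 in low Pi shoots, and at 2.93, 3.11 and 3.29 and 6.69, 4.18 and 5.47 in roots. Replicate 1 was again the highest low Pi shoot, and the difference was -2.11 ± 0.52 (SE, limma adjusted p = 0.00341). AGPS1, a further subunit, rose in both tissues and more in shoots (difference -1.24 ± 0.26, SE), and the sucrose transporter SUT1 rose in shoots alone, from 9.501 ± 1.74 to 25.95 ± 1.64 FPKM (difference -1.63 ± 0.29, SE). AOX1a, the alternative oxidase of mitochondria, rose from 6.95 ± 1.17 to 27.6 ± 6.77 FPKM in shoots and from 12.9 ± 0.881 to 18.7 ± 2.94 in roots (difference -1.33 ± 0.25, SE). The rise in roots lost its call in 5 of the 12 fits that left out 1 library and with TPM. LSI6, a silicon transporter of xylem unloading in leaves, rose in shoots from 25.3 ± 2.78 to 74.1 ± 14.4 FPKM (difference -1.22 ± 0.25, SE), whereas LSI2, the silicon exporter of roots, fell in roots. Its difference of -1.09 ± 0.35 (SE) was not called with a pseudocount of 0.1, without WT low Pi root replicate 1 or without WT low Pi shoot replicate 1.

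Of 23 cellulose synthase genes, 13 rose and 2 fell in shoots and 9 rose and 2 fell in roots, while 22.8% of all tested genes rose in shoots and 13.6% in roots. The 9 became 3 without WT low Pi root replicate 1 and 5 without WT low Pi root replicate 3 or any 1 of the WT high Pi roots. The difference was lower in roots for 9 (39.1%) and higher for 2 (8.7%), against 19.3% and 18.6% of all tested genes. LOC_Os08g06380 of this family rose in shoots from 1.65, 1.502 and 1.64 to 7.56, 13.7 and 10.3 FPKM, against 129.7 ± 9.77 and 181 ± 22.2 in roots (SD, n = 3; difference -1.64 ± 0.36, SE). Among the 10 named genes with the lowest differences, LOC_Os08g07080, a terpene synthase, rose in shoots from 2.68, 6.29 and 31.6 to 394, 355 and 91.03 FPKM and was under 0.2 FPKM in roots. Its shoot libraries varied widely. That no low Pi shoot overlapped a high Pi shoot was required by the naming rule. LOC_Os05g30500, described as an NPR1-interacting protein, rose in shoots from 0.611, 0.582 and 1.54 to 26.9, 40.3 and 21.9 FPKM and stood at 2.54, 3.42 and 2.97 and 1.55, 1.61 and 1.37 in roots. Its difference was -4.66 ± 0.34 (SE), and its fall in roots lost the call in 8 of the 12 fits that left out 1 library.

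Beside NR2, the named genes that fell in roots and rose in shoots covered several functions. LOC_Os01g44050, a tetrapyrrole methylase, the enzyme family that makes the sirohaem cofactor of nitrite reductase, stood at 61.6, 39.6 and 47.6 FPKM in high Pi roots and 11.3, 11.5 and 10.02 in low Pi roots. In shoots it stood at 19.9, 15.7 and 18.4 FPKM at high Pi and 61.1, 132 and 162 at low Pi (difference -4.61 ± 0.38, SE, limma adjusted p = 3.67e-08). The low Pi shoots were all above the high Pi shoots, which the naming rule required, with replicate 1 the lowest low Pi shoot. LOC_Os11g29400, a 6-phosphogluconate dehydrogenase of the pentose phosphate pathway, fell from 294, 231 and 269.6 to 102, 109 and 107 FPKM in roots and rose from 51.5, 49.6 and 51.5 to 109.8, 151 and 158 in shoots (difference -2.73 ± 0.19, SE). LOC_Os04g55710, an asparaginase, fell from 27.4 ± 4.54 to 9.75 ± 2.11 FPKM in roots and rose from 195 ± 22.03 to 513 ± 133 in shoots (SD, n = 3). LOC_Os10g42960, a sodium/solute symporter, fell from 31.1 ± 1.89 to 9.91 ± 2.21 FPKM in roots and rose from 13.8 ± 1.502 to 44.8 ± 11.3 in shoots (SD, n = 3).

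The other named genes of this direction were a multidrug extrusion protein (LOC_Os04g48290), a family 61 glycosyltransferase (LOC_Os01g72610), a cytochrome P450 (LOC_Os09g23820), an AAA-type ATPase (LOC_Os03g58790) and the AP2 gene LOC_Os03g09170. The 10 genes had been chosen for large changes and no overlap in both tissues of these same libraries. They had differences from -7.38 to -2.61, and all 10 stayed opposite in every fit that left out 1 library. Of these, LOC_Os09g23820 went from 19.3 to 6.37 FPKM in roots and from 1.11 to 8.27 in shoots on average.

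Genes that rose in roots and fell in shoots moved by less. The 10 named ones, chosen in the same way, had differences from 1.41 to 3.38. Of these, 8 stayed opposite in every fit that left out 1 library. LOC_Os06g47130, with a lipid-binding domain of the synaptotagmin-like type, stood at 1.43, 1.62 and 1.66 FPKM in high Pi roots and 7.82, 8.39 and 7.33 in low Pi roots, and at 15.8, 16.4 and 20.4 in high Pi shoots and 1.04, 8.38 and 10.9 in low Pi shoots. Low Pi shoot replicate 1 was far below the other 2. LOC_Os11g04860, a glycosyltransferase that uses UDP-sugars, rose from 1.15, 1.49 and 1.12 to 2.56, 3.197 and 2.37 FPKM in roots and fell from 19.6, 18.5 and 19.8 to 4.21, 4.096 and 4.14 in shoots (difference 2.70 ± 0.13, SE, limma adjusted p = 3.58e-11). LOC_Os12g32760, a sugar transporter-like gene, rose from 11.8 ± 0.236 to 22.2 ± 3.23 FPKM in roots and fell from 50.7 ± 1.84 to 13.3 ± 1.54 in shoots (SD, n = 3). LOC_Os01g46570, a CTP synthase, rose in roots from 18.1 to 37.5 FPKM and fell in shoots from 3.69 to 1.51. An alcohol dehydrogenase (LOC_Os12g12470), a family 48 glycosyl transferase (LOC_Os06g51270), a B-box zinc finger gene (LOC_Os05g11510) and a Ten1 subunit gene of the telomere-capping CST complex (LOC_Os07g06644) were the others that stayed opposite. The leucine-rich repeat gene LOC_Os07g38130 and the NADH:flavin oxidoreductase gene LOC_Os01g27230 lost a tissue's call in 5 and 4 of the 12 fits.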

How the data were processed

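Messenger RNA of 24 rice libraries in 8 groups of 3 was analysed, of which 12 WT libraries hold the comparison. Per the submitters' processing notes, HISAT2, StringTie, featureCounts 1.5.0-p3 and DESeq2 were used; their roles, the genome build and strand handling are not given in the sources used here. The authors deposited FPKM per gene beside gene lengths, coordinates and descriptions for 57668 features. FPKM divides reads by length and by a divisor per library, which shifts all genes of that library together. Where the divisor follows the read total, a few abundant transcripts can shift all others. From whole-read steps in the FPKM values the WT roots held 22.1 to 24.9 M and the WT shoots 23.4 to 28.8 M assigned reads. The divisor was not this total. It was 1.153 to 1.189 times the total in WT low Pi roots and 1.207 to 1.228 times in WT high Pi roots. In WT shoots it was 0.816 to 0.986 times the total at low Pi and 0.773 to 0.844 times at high Pi. What set the divisor is not given in the sources used here.

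Values were analysed as log2(FPKM + 1) with limma 3.58.1 in R 4.3.3 (empirical Bayes with trend and robust settings, 1 mean per group over all 24 libraries, Benjamini-Hochberg). The 22980 genes with a mean of at least 1 FPKM over all 24 libraries were tested and called at an adjusted p under 0.05. The fit was checked on simulated data. Tables and figures used Python 3.11.15 with pandas 2.3.3, numpy 2.4.6 and matplotlib 3.10.9. The labels do not say whether the pools of a group came from separate cultures, so p-values measure only the spread between these libraries, which may be technical.

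Genes are named if they have 1 of the 10 highest or lowest differences, or are 1 of the 10 opposite genes in each direction with the largest smaller response (described genes, at least 5 FPKM in 1 WT group, no overlap of replicates), if they are on a gene list, or if they are 1 of the 4 called members with the largest difference of a list by description. For genes named by their difference, the lack of overlap was required in the tissue with the larger change. For genes named as opposite it was required in both tissues. SPX6, the antenna genes and the lists by domain were added after the data were seen. All members and lists were chosen with earlier results of these data known. Symbols follow published assignments to the loci, not the deposited files. Alternatives were the libraries in the fit, pseudocounts of 0.1 and 5, filters, scalings, library weights, replicate blocks and leaving out each WT library.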

Additional observations from a re-analysis of the deposited data

Results flagged for a closer look

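The genes here were set apart because the low Pi response differed between roots and shoots in the limma interaction test, with the largest differences or with opposite directions. All values are differences of root minus shoot response on the log2(FPKM + 1) scale, and none was weighed for its cause.

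With the root response the higher, the values were 4.91 for PPDKA, 4.72 for PT6, 4.01 for LOC_Os04g47360, 3.94 for LOC_Os01g03640, 3.75 for PT3, 3.64 for LOC_Os11g35930, 3.51 for LOC_Os04g09390, 3.20 for LOC_Os10g02750 and 3.14 for LOC_Os11g05400. With the root response the lower, they were -6.07 for YSL15, -5.02 for LOC_Os06g43410, -4.96 for NAS2, -4.87 for NAS1, -4.61 for LOC_Os08g07080 and -4.40 for TOM1. Roots and shoots moved in opposite directions for the genes that follow.

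A rise in roots and a fall in shoots gave 3.38 for LOC_Os06g47130, 2.71 for LOC_Os12g32760, 2.70 for LOC_Os11g04860, 1.96 for LOC_Os12g12470, 1.89 for LOC_Os01g46570, 1.80 for LOC_Os07g38130, 1.68 for LOC_Os05g11510, 1.65 for LOC_Os07g06644, 1.61 for LOC_Os06g51270 and 1.41 for LOC_Os01g27230. The sulfate transporter gene LOC_Os04g55800, with 2.25, was also called in both tissues, its rise in roots being lost in 4 of the 12 fits that left out 1 library. A fall in roots and a rise in shoots gave -7.38 for NR2, -3.93 for NIA1, -2.65 for NRT2.3, -3.35 for NAR2.1 and -2.58 for YSL16 among the nitrogen and iron genes. The same direction gave -4.66 for LOC_Os05g30500, -4.61 for LOC_Os01g44050, -3.56 for LOC_Os09g23820, -3.18 for LOC_Os10g42960, -3.01 for LOC_Os03g58790, -2.78 for LOC_Os04g55710, -2.73 for LOC_Os11g29400, -2.68 for LOC_Os01g72610 and -2.61 for LOC_Os04g48290. Transcription factor genes of this direction had -4.62 for LOC_Os09g25060 and -3.59 for LOC_Os09g25070 (WRKY), -2.32 for LOC_Os05g34830 (NAC), and -3.34 for LOC_Os03g09170 and -3.01 for LOC_Os02g42585 (AP2).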

How the results depend on the processing

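The count of 8707 differences was 7585 to 8723 when 1 of the 12 WT libraries was left out, with 4573 to 7265 calls in roots and 9566 to 11078 in shoots. Of the response classes, opposite genes that rose in roots numbered 137 to 273 and those that fell in roots 342 to 571. Root only genes numbered 1407 to 2069, shoot only genes 4206 to 4877 and same-direction genes 585 to 911. TPM gave 2545 differences higher in roots and 133 opposite genes that rose in roots. A weight per library, which ranged from 0.146 for WT low Pi shoot replicate 1 to 10.3 for WT low Pi root replicate 3, gave 6628 differences higher in roots, 13064 calls in roots, 3492 root only, 2328 same-direction, and 1029 and 1277 opposite genes. A mean of at least 1 FPKM in each tissue left 892 root only genes.

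In a count over 137 named and tested genes, 113 kept the call and direction of their difference in all 23 alternatives, and 24 did not. The count did not take in every gene named above, and some genes outside it lost or gained a call. Calls in roots or in shoots were not part of this count, and some of them changed, as given above. Among genes with a called difference, the sign turned for PAP23 with a pseudocount of 0.1 (-0.52) and for PHO1-3 with a pseudocount of 5 (-0.39); the cause was not tested. Among opposite genes, 32.6% rose in roots with the deposited FPKM, 18.5% with TPM and 43.6% with quantile normalization, and of shoot calls 47.9%, 60.8% and 42.5% were higher. Low levels limit the smallest values: a gene under 1 FPKM in a tissue could hardly show a fall there.

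Deviations of same-numbered WT root and shoot libraries had correlations of -0.033 to 0.049, against -0.057 to 0.063 for unlike numbers. For the bHLH6 overexpressor they were 0.013 to 0.031 against -0.03 to 0.012, and for spx4 0.074 to 0.135 against -0.128 to 0.037. The numbers were not taken as pairs in the main fit, and a weak pairing could remain. With a replicate block by seedling pool 8328 differences were called, and with a block by number 8552. Promoter motif shares were not run.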

Other observations

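Inorganic pyrophosphatases, which release Pi from pyrophosphate, rose in shoots for 5 of 6 tested genes and in roots for 3. A difference was called for 4 (66.7%, against 37.9% of all tested genes), of which 3 were lower and 1 higher in roots. LOC_Os05g02310 stood at 135, 142 and 154 FPKM in high Pi roots and 487, 319.7 and 407 in low Pi roots, and at 5.104, 4.52 and 7.46 in high Pi shoots and 301, 158 and 206 in low Pi shoots. The high Pi shoots were far below all other libraries, and the difference was -3.56 ± 0.30 (SE, limma adjusted p = 3.85e-08). LOC_Os02g47600 had the opposite balance, with 8.41 ± 0.903 and 45.3 ± 4.07 FPKM in roots and 138 ± 14.6 and 364 ± 53.2 in shoots (SD, n = 3; difference 0.92 ± 0.21, SE). Of 5 sulfate transporter genes, 3 had a called difference. LOC_Os06g05160 rose in both tissues and more in shoots, from 4.75 ± 0.899 to 20.9 ± 1.06 FPKM, and LOC_Os04g55800 fell in shoots from 65.97, 69.5 and 71.1 to 17.6, 17.4 and 15.8 FPKM while it stayed under 1 FPKM in roots (difference 2.25 ± 0.14, SE).

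Among strigolactone genes, D53, a repressor of that signalling, rose in shoots from 18.8, 14.5 and 16.3 to 48.6, 38.3 and 41.8 FPKM and was not called in roots (difference -1.04 ± 0.26, SE, limma adjusted p = 0.00379). D3, the F-box protein that targets D53, fell in shoots from 11.8 ± 0.618 to 5.95 ± 0.981 FPKM (SD, n = 3; difference 0.70 ± 0.17, SE). The clock genes PRR1 and PRR59 rose in shoots alone, from 15.2 ± 1.83 to 31.3 ± 3.51 and from 12.2 ± 0.985 to 26.7 ± 3.08 FPKM (SD, n = 3), with differences of -0.95 ± 0.14 and -0.84 ± 0.12 (SE). LHY and GI, other clock genes, had no called difference. Of 9 clock genes, 4 rose and 3 fell in shoots. The difference was lower in roots for 3 (33.3%) and higher for 2 (22.2%), against 19.3% and 18.6% of all tested genes. The higher ones were PRR37 (0.48) and ELF3-1 (0.33), which lost their call in 2 and 9 of the 12 fits that left out 1 library. The lipoxygenase gene LOC_Os12g37260 stood at 27.6, 33.4 and 86.7 FPKM in high Pi shoots and 727, 619.9 and 155 in low Pi shoots, where the libraries varied widely, and at under 0.1 FPKM in roots (difference -3.26 ± 0.66, SE). Heat shock protein genes, 37 in all, had differences called higher for 9 (24.3%; 4 genes with TPM) and lower for 7 (18.9%), near the 18.6% and 19.3% of all tested genes. Of 58 glutathione S-transferases, 17 were lower (29.3%) and 11 higher.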
